A study of Mus musculus with 3 samples.

Results

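A set of 10 non-classical MHC class I genes of the mouse H2 complex was followed in blastocysts of the NOD and B6 strains. They were chosen by name from the 24063 genes of the table: H2-Q1, H2-Q2, H2-Q4, H2-Q6 and H2-Q7 of the Q region, H2-T10, H2-T22, H2-T23 and H2-T24 of the T region, and H2-M3 of the M region. All 10 had a row, and 9 had a count in at least 1 library. The genes lie on chromosome 17 (mm10), within 1.954 Mb from the start of H2-Q1 to the end of H2-M3.

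The low-input RNA-Seq set held 3 libraries, 1 from C57BL/6 (B6), a strain that does not develop autoimmune diabetes, and 2 from NOD, the non-obese diabetic strain, which does. Neither strain was treated, and the labels name no engineered allele and give no age for the embryos. The labels describe whole blastocysts, whereas the study's methods describe single inner cell masses (ICMs) freed from the trophectoderm by immunosurgery. The comparison asked whether these immune genes already differ between the strains before implantation. The B6 library held 12505685 counts, NOD 1 held 33891715 and NOD 2 held 36171013, so the B6 library had the lowest precision.

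Class I molecules are cell surface proteins made of a heavy chain, the light chain beta-2-microglobulin and, in most cases, a bound peptide. The classical chains are highly polymorphic and present peptides to cytotoxic T cells, whereas the non-classical Q, T and M chains are less polymorphic and often have a specialised ligand or receptor. Qa-2, the product of H2-Q6 to H2-Q9, is held in the membrane by a glycosylphosphatidylinositol (GPI) anchor and is known in the preimplantation embryo as the product of the Ped gene, which affects the rate of cleavage.

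These genes arose by duplication, and stretches of their exons are identical over the full length of a read. The following pairs are shown because a 50-base read from them has no single origin. The coordinates are on GRCm38, the assembly that mm10 names, each sequence is written along the plus strand, and no part of it is in capitals.
H2-Q6 exon 1 (chr17:35424891-35424940, plus strand): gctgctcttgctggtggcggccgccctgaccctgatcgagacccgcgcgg
H2-Q7 exon 1 (chr17:35439235-35439284, plus strand): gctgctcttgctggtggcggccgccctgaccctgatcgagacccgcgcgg
H2-Q1 exon 4 (chr17:35323099-35323148, plus strand): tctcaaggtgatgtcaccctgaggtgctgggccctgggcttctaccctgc
H2-Q2 exon 4 (chr17:35344790-35344839, plus strand): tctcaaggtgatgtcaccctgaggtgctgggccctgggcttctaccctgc

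The first of these sequences is also found in H2-Q5. Transcripts were compared as all of their 50-base words against the other genes of the GENCODE M21 annotation, using the transcript linked to each accession, which for H2-Q2, H2-T10, H2-T23 and H2-M3 starts and ends elsewhere than the counted row. For H2-Q6, 36.8% of words were found exactly in another gene, with H2-Q7 holding the most (30.5%). For H2-Q7 the share was 40.2%. For H2-T10 it was 50.1%, and for H2-T22 it was 44.7%, with each of this pair the main match of the other. At the other end, H2-T24 shared 3.24% of its words, H2-M3 0.576% and H2-Q2 8.74%. When up to 2 mismatches to any of 35 class I genes were allowed, the share was 91.5% for H2-T22, 78.3% for H2-Q6, 35.9% for H2-Q2 and 6.66% for H2-T24.

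**Figure D1:**
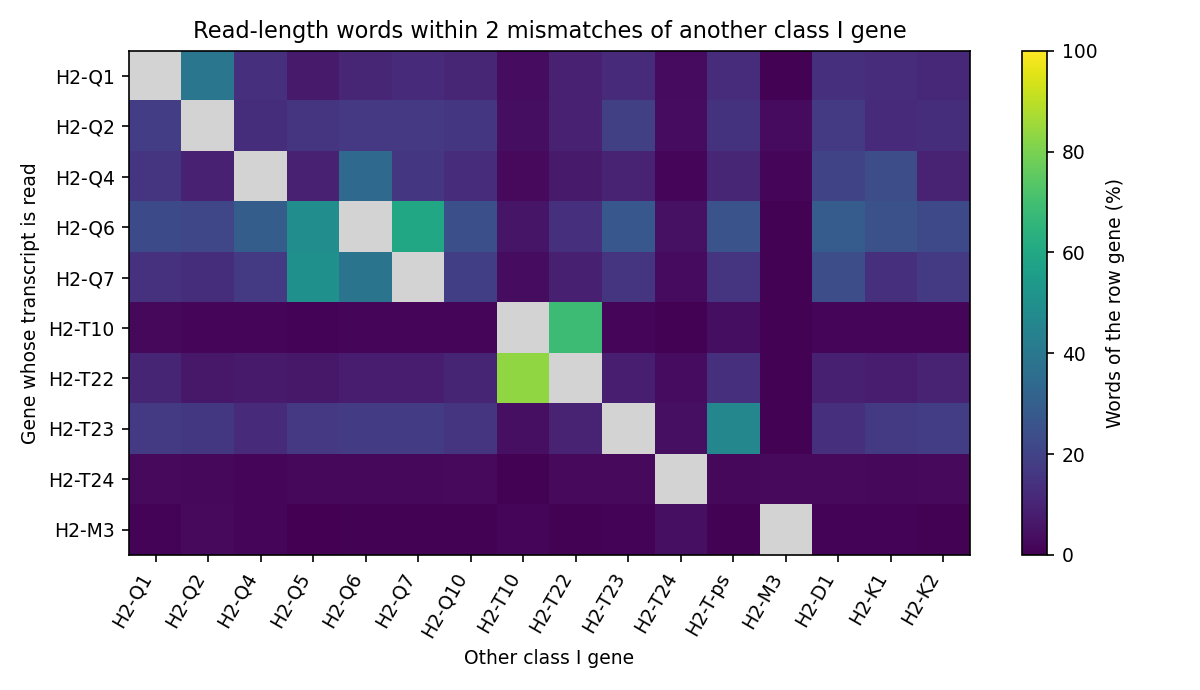
Percentage of the 50-base words of each of the 10 transcripts (rows) found within 2 mismatches in another class I gene (columns), with a gene against itself in grey. The brightest cell is H2-T22 against H2-T10 (83.5%), and H2-T24 and H2-M3 have dark rows.

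Some rows of the table also cover the same bases. The H2-Q6 row lay fully within the row of H2-Q8 and had the same counts, and H2-Q7 overlapped H2-Q9 over 99.7% of its span, again with the same counts. H2-T22 overlapped H2-T9 over 99.8%. Values given for H2-Q6, H2-Q7 and H2-T22 are therefore values of H2-Q6/H2-Q8, H2-Q7/H2-Q9 and H2-T22/H2-T9. H2-T23 and H2-T24 lie inside the span of A930015D03Rik on the opposite strand, but their exons share 0 bases with its exons.

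In the whole-table comparison, 2 of the 10 genes were called higher in NOD, H2-T10 and H2-Q2, and 0 were called lower. A call required an adjusted p under 0.05 in edgeR's quasi-likelihood test with Benjamini-Hochberg adjustment and a change of at least 2-fold. Of all 14456 genes tested, 10.3% were called higher and 7.39% lower, a background at which about 1 of 10 genes would be called, so the count of 2 is not in itself a result about these genes. In all, 7 genes were higher in NOD and 2 were lower (H2-Q7 and H2-T22), in both cases without a call. Genes with 0 counts in B6, and H2-T10 and H2-T24 with 1, entered the test only through their NOD counts, so the calls of H2-T10 and H2-Q2 rest on genes that the filter kept because NOD was high. Among all tested genes the median log2 fold change was 0.26. With 1 library against 2, an exact permutation test of a single gene cannot go below p = 0.333, and p-values from the fit measure only the spread between these libraries, which may be technical. A lower count in a bulk library can come from fewer cells of a type or from less RNA per cell, and these cannot be told apart.

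**Figure D2:**
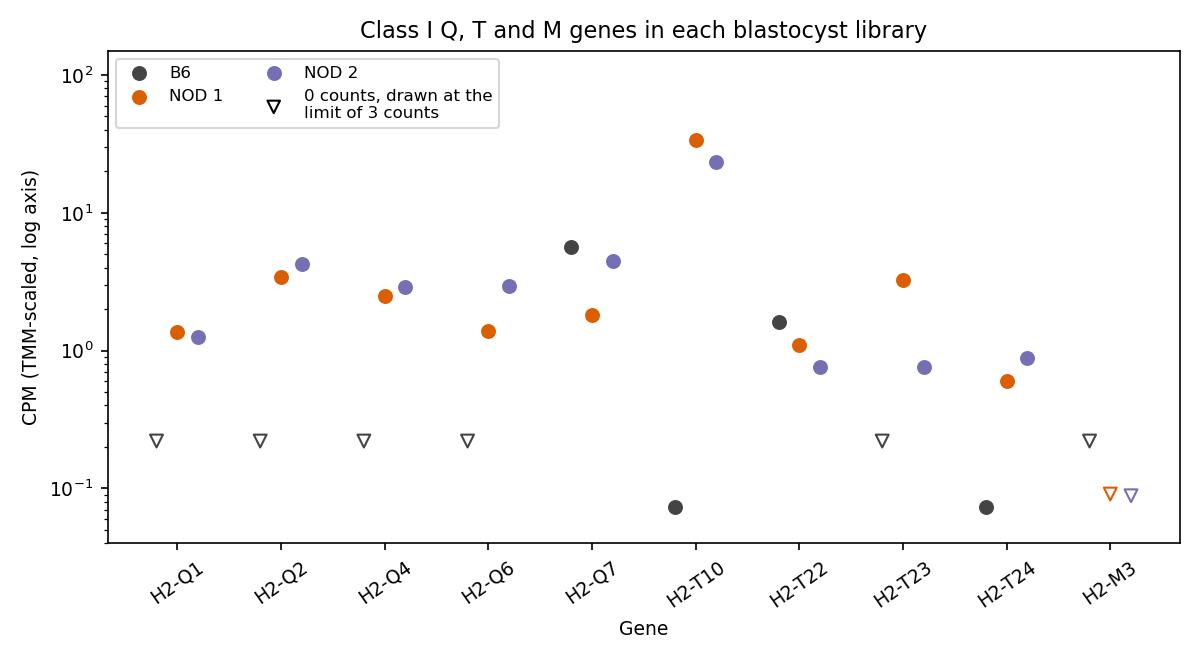
Level of each gene in each library, in CPM (counts relative to the library total, scaled by TMM factors), on a log axis. Filled points are counts above 0, and open triangles are 0 counts drawn at the limit of 3 counts, so the single B6 counts of H2-T10 and H2-T24 lie below the B6 triangles. H2-T10 reached 33.5 and 23.3 CPM in NOD, against 0.0734 CPM in B6.

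H2-T10 (NR_046286, chr17:36115871-36121444, minus strand) had the largest counts of the 10 genes. H2-T10 belongs to a pair, with H2-T22, whose products are bound by gamma-delta T cell receptors without a peptide. B6 gave 1 count, NOD 1 gave 1108 and NOD 2 gave 794, or 0.0734, 33.5 and 23.3 CPM. Both NOD libraries lay above the single B6 library, an order that says little by itself with 1 library against 2. The NOD mean was 28.4 ± 7.20 CPM (SD, n = 2), and the pooled NOD level was 386 times that of B6 with an exact 95% interval of 69.3 to 15268. Such intervals, and the limits of 3 counts used for a count of 0, cover counting error only, because amplified reads without molecular identifiers are not independent molecules. The log2 fold change was 8.51 (SE 0.88), with adjusted p = 0.0203 in edgeR's quasi-likelihood test. RefSeq annotates H2-T10 as a transcribed pseudogene. The GENCODE M21 transcript linked to its accession, a retained intron of a polymorphic pseudogene, has other ends and 3389 exon bases against the 2887 listed with the counts, so it is not the same model.

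H2-T22 (NM_010397, chr17:36038409-36042702, minus strand), the partner of H2-T10, had counts of 22 (B6), 36 (NOD 1) and 26 (NOD 2). In CPM these were 1.61, 1.09 and 0.764, with B6 above both NOD libraries. The log2 fold change was -0.80 (SE 1.29; adjusted p = 0.662 by edgeR's quasi-likelihood test), so no difference was called. The share of H2-T10 in the counts of the pair was 4.35% in B6 (1 of 23 counts; exact Clopper-Pearson 95% interval 0.110 to 21.95), 96.9% in NOD 1 (95.7 to 97.8) and 96.8% in NOD 2 (95.4 to 97.9). Summed, the pair had 23, 1144 and 820 counts, or 1.69 CPM for B6 against an NOD mean of 29.4 ± 7.43 CPM (SD, n = 2). This sum does not depend on which of the pair a shared read was assigned to, provided that shared reads were counted, which is not known. Its log2 fold change was 4.12 (SE 0.60), with adjusted p = 0.0248 in edgeR's quasi-likelihood test. This form of the sum was chosen after seeing the data. The planned sum, which also holds the overlapping row of H2-T9, gave 3.20 (SE 0.56; adjusted p = 0.0315 in the same edgeR test).

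H2-T23 (NM_010398, chr17:36029977-36032701, minus strand) encodes Qa-1, which presents leader peptides of other class I chains to the CD94/NKG2 receptors of natural killer cells. No B6 read was counted, against 107 for NOD 1 and 26 for NOD 2. The NOD libraries differed by more than counting error, with NOD 2 at 0.236 times the level of NOD 1 (exact 95% interval 0.148 to 0.365). The mean was 2.001 ± 1.75 CPM (SD, n = 2), at least 9.09-fold higher than the B6 limit of 3 counts (0.220 CPM). Without NOD 1 the fold was at least 3.47, and without NOD 2 at least 14.7. It was not called (adjusted p = 0.0885 by edgeR's quasi-likelihood test).

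H2-T24 (NM_008207, chr17:36005695-36020560, minus strand) had 1, 20 and 30 counts in B6, NOD 1 and NOD 2, or 0.0734, 0.605 and 0.882 CPM. Both NOD values were above the single B6 value, all at low counts. The pooled ratio was 10.2 (exact 95% interval 1.74 to 409), and the log2 fold change of 3.26 (SE 2.09) was not called, with adjusted p = 0.289 in edgeR's quasi-likelihood test. H2-T24 has a low share of words in common with other genes.

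H2-Q2 (NM_010392, chr17:35342333-35345722, plus strand) was the other gene called. B6 gave 0 counts, NOD 1 gave 113 (3.42 CPM) and NOD 2 gave 144 (4.23 CPM). The NOD mean of 3.83 ± 0.575 CPM (SD, n = 2) was at least 17.4-fold higher than the B6 limit. The adjusted p was 0.0396 in edgeR's quasi-likelihood test. The H2-Q spans were also summed, each counted once, so that reads shared among them need not be assigned to 1 gene. This holds only if shared reads were counted, which is not known. The sum, chosen in this form after seeing the data, was not called (log2 fold change 1.33; adjusted p = 0.163 in the same edgeR test). H2-Q4 (NM_001143689, chr17:35379617-35384674) had 0, 82 and 98 counts, at least 12.2-fold higher in NOD, and missed the threshold (adjusted p = 0.0509 in the same edgeR test). H2-Q1 (NM_010390, chr17:35320558-35325099) had 0, 45 and 43 counts, at least 5.96-fold higher, also without a call (adjusted p = 0.0918 in the same edgeR test). All 3 genes had counts in both NOD libraries and 0 in B6.

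A count of 0 in the B6 library was not rare at these levels. Among 1755 genes with an NOD mean between 1.31 and 3.83 CPM, the span from H2-Q1 to H2-Q2, 395 (22.5%) had 0 counts in B6. H2-Q4, H2-Q6 and H2-T23 also have means in that span. So does H2-Q7, which had 77 counts in B6.

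H2-Q6 and H2-Q7 encode Qa-2 heavy chains. H2-Q6 (NM_207648, chr17:35424877-35428361, plus strand) had counts of 0 (B6), 46 (NOD 1) and 100 (NOD 2), with an NOD mean of 2.17 ± 1.09 CPM (SD, n = 2), at least 9.83-fold higher in NOD. Without NOD 2 this limit was 6.32-fold, and without NOD 1 it was 13.3-fold. It was not called (adjusted p = 0.0670 by edgeR's quasi-likelihood test). H2-Q7 (NM_010394, chr17:35439155-35443773, plus strand) had counts of 77 (B6), 60 (NOD 1) and 153 (NOD 2). Its CPM values were 5.65, 1.82 and 4.50, so that B6 was above both NOD libraries but NOD 2 came close to it. The log2 fold change was -0.84 (SE 0.90; adjusted p = 0.507 by edgeR's quasi-likelihood test).

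Both Qa-2 genes were higher in NOD 2 than in NOD 1, 2.11 times for H2-Q6 (exact 95% interval 1.48 to 3.06) and 2.48 times for H2-Q7 (1.83 to 3.40). H2-T10 was lower in NOD 2, at 0.696 times NOD 1 (0.635 to 0.763). The spread between the NOD libraries therefore did not run in 1 direction over these genes. For H2-Q1, H2-Q2, H2-Q4, H2-T22 and H2-T24 the interval of this ratio included 1.

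The makeup of the Q counts in the B6 library was unlike that in the NOD libraries, with no second B6 library to give its spread. With each overlapping span counted once, H2-Q7 held 91.7% of the H2-Q counts in B6 (77 of 84; exact 95% interval 83.6 to 96.6), 14.7% in NOD 1 (60 of 408; 11.4 to 18.5) and 24.1% in NOD 2 (153 of 636; 20.8 to 27.6). The rest of the B6 counts, 7, were on H2-Q5. Within the pair of Qa-2 genes, H2-Q6 held 0 of 77 counts in B6, which allows a share of up to 4.68%, 43.4% in NOD 1 and 39.5% in NOD 2. The sum over the H2-Q spans was 6.17 CPM for B6, with an NOD mean of 15.5 ± 4.49 CPM (SD, n = 2), a log2 fold change of 1.33 (SE 0.59) that was not called (adjusted p = 0.163 by edgeR's quasi-likelihood test). The Q total thus did not pass the test. Its division among genes was compared with counting error alone.

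**Figure D3:**
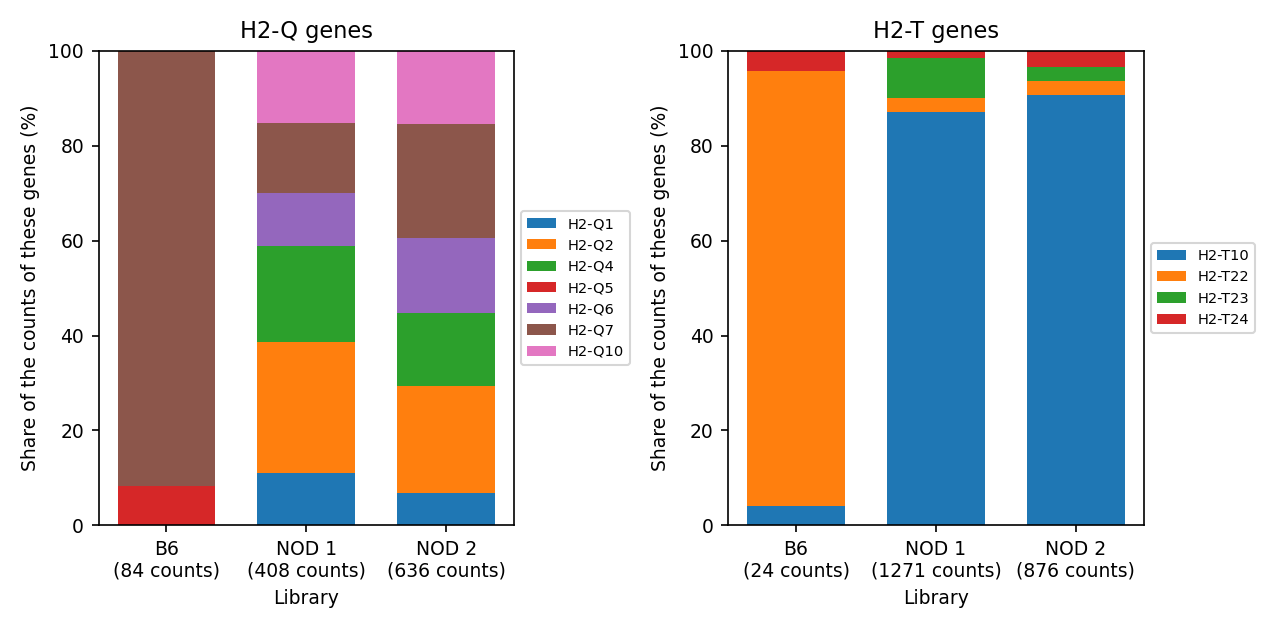
Share of the counts of the H2-Q genes (left) and of the 4 H2-T genes (right) taken by each gene in each library, with the total number of counts under each bar. H2-Q7 filled 91.7% of the Q counts in B6, and H2-T10 filled 87.2% and 90.6% of the T counts in the NOD libraries.

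H2-M3 (NM_013819, chr17:37270234-37274485, plus strand) presents peptides that begin with N-formylmethionine, which come from bacteria and mitochondria. It had 0 counts in all 3 libraries and was not tested. These depths allow up to 0.220, 0.0908 and 0.0882 CPM for B6, NOD 1 and NOD 2.

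Scaled for the length listed for each transcript, the NOD levels in FPKM were highest for H2-T10 (9.85 ± 2.50, SD, n = 2), followed by H2-Q2 (3.51 ± 0.527), H2-Q6 (2.22 ± 1.12), H2-Q7 (2.07 ± 1.24), H2-T23 (1.53 ± 1.34), H2-Q4 (1.502 ± 0.158), H2-Q1 (0.652 ± 0.034), H2-T22 (0.530 ± 0.132) and H2-T24 (0.342 ± 0.090). The ranges of H2-Q6, H2-Q7, H2-T23 and H2-Q4 overlapped, and that of H2-T23 also reached those of H2-Q1 and H2-T22, so these are not ordered beyond their spread. In B6, only H2-Q7 (3.70 FPKM) and H2-T22 (0.924 FPKM) had more than 1 count. The classical chain H2-D1 was at 200 ± 16.2 FPKM in NOD, so these genes were expressed at low levels beside it.

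Other rows of the same families also had counts. H2-Q10, whose product is secreted by the liver, had counts of 0, 62 and 98, at least 10.8-fold higher in NOD without a call (adjusted p = 0.0582 by edgeR's quasi-likelihood test). H2-M5 had 19, 1 and 18 counts. H2-Q5 and H2-M10.1 had 7 counts each in B6 and 0 in NOD, and H2-M2, H2-T3, H2-M1 and H2-M10.3 had at most 3 counts in any library. The T region row C920025E04Rik, named H2-T-ps in RefSeq, had 0, 181 and 118 counts and was called higher in NOD (adjusted p = 0.0371 by edgeR's quasi-likelihood test). It is the gene with which H2-T23 shares the most words (12.9%). Of the other class I rows of the T region, H2-Bl had 24, 194 and 63 counts (log2 fold change 1.13, SE 1.12) and Gm8909 had 15, 75 and 57 (0.84, SE 1.18), and neither was called.

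Of the flanking genes outside the family, those beside the Q and T genes were not called. The Q genes lie between Ddx39b, an RNA helicase (log2 fold change 0.21, SE 0.31), and Pou5f1, the pluripotency factor OCT4 (0.58, SE 0.28). The T genes are flanked by Gnl1, A930015D03Rik and 2410017I17Rik. Gnl1 was lower in NOD (-1.58, SE 0.43; adjusted p = 0.0661 by edgeR's quasi-likelihood test), and 2410017I17Rik had 2, 37 and 48 counts. On the lower side of H2-M3, Gabbr1, a GABA receptor subunit at a distance of 196 kb, had 197, 0 and 5 counts and was called lower in NOD (adjusted p = 0.0375 by edgeR's quasi-likelihood test).

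**Figure D4:**
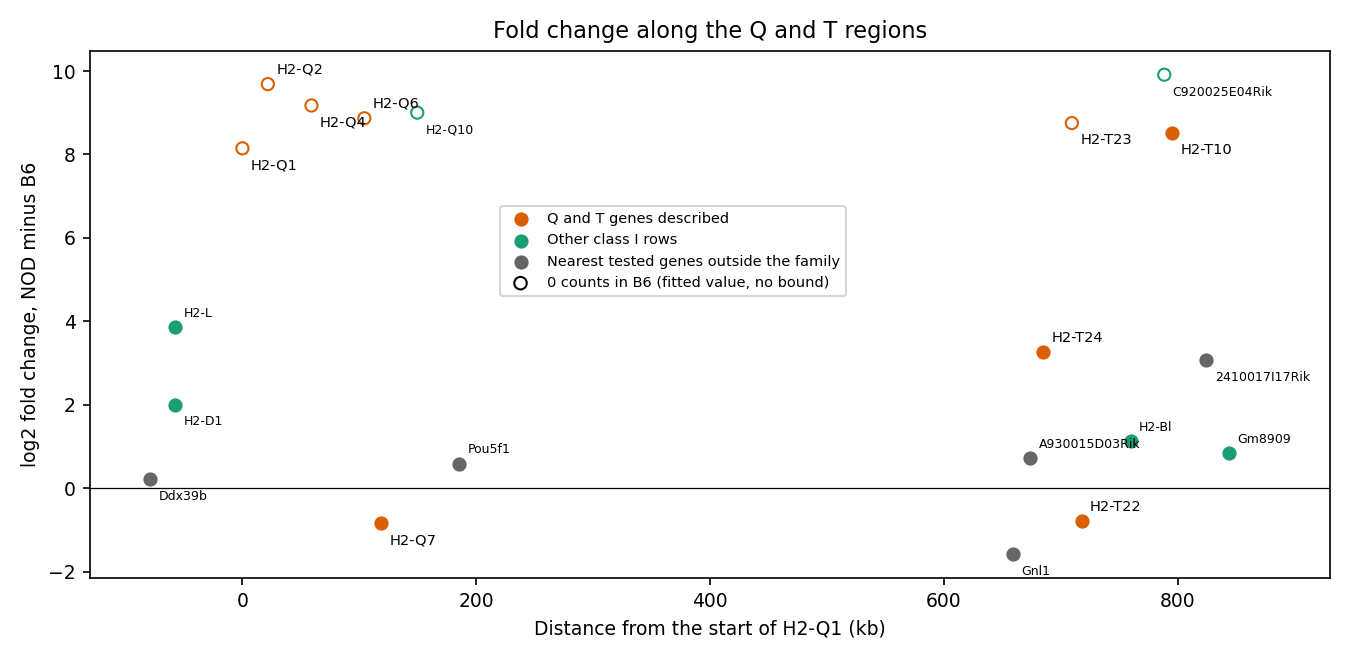
Log2 fold change of NOD against B6 by distance from the start of H2-Q1 in kb, with the Q and T genes in orange, other class I rows in green and flanking genes in grey. Open circles had 0 counts in B6, where the fitted value is no bound. H2-Q7 (-0.84), H2-T22 (-0.80) and the flanking gene Gnl1 (-1.58) lie below 0.

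Of the 4 classical rows, 3 were called higher in NOD and 1 lower, against 10.3% and 7.39% of all genes. H2-K1 fell from 478 CPM (B6) to an NOD mean of 54.5 ± 3.90 CPM (SD, n = 2; log2 fold change -3.13; adjusted p = 0.0191 by edgeR's quasi-likelihood test). H2-D1 rose from 86.1 CPM to 346 ± 28.0 CPM (log2 fold change 2.01). H2-L rose (3.86), but its row overlaps that of H2-D1 over 3608 bases and is no separate measurement. The pseudogene H2-K2 also rose, with 0, 411 and 518 counts. These are changes in the counts of each row. The classical chains are highly polymorphic, and reads of both strains were aligned to a reference genome of the B6 strain. The part of read alignment in these falls and rises was not tested. Summed over the 10 non-classical genes, the CPM was 7.41 (B6), 48.9 (NOD 1) and 41.6 (NOD 2), most of it H2-T10 in NOD.

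Of 9 genes for the light chain and peptide loading, 2 were called higher in NOD and 0 lower, against 10.3% and 7.39% of all genes. They were Pdia3, a disulfide isomerase of the loading complex (log2 fold change 3.11, SE 0.22), and Calr, the chaperone calreticulin (1.23, SE 0.24). B2m, the light chain that the class I heavy chains need, had 66.5 CPM (B6) and an NOD mean of 121 ± 9.55 CPM (SD, n = 2) and was not called. Of the peptide transporter subunits, Tap1 had 224, 371 and 89 counts (log2 fold change -1.25, SE 0.92) and Tap2 had 4, 51 and 97 (2.88, SE 1.42), and neither was called. Tap1 was the only gene of the list with a negative fold change. The median log2 fold change of this list was 1.53.

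In the immunoproteasome list, 2 of 5 genes were called higher in NOD, against 10.3% of all genes: Psmb9, a catalytic subunit (3.98, SE 0.73), and Psme2, a subunit of the activator (2.15, SE 0.50). Psmb8, another catalytic subunit, had 0, 0 and 61 counts. Psmb10 had 833, 1205 and 1076 counts (-0.84, SE 0.35) and Psme1 had 680, 1654 and 1933 (0.10, SE 0.35), and neither was called. Psme2 has a near copy, Psme2b, with its own row. Among 13 tested regulators of class I transcription, 1 was called higher, against 10.3% of all genes, Rfxap, a subunit of the RFX complex (2.30, SE 0.37). Nlrc5, the class I transactivator, had 0 counts in B6 and NOD 1 and 15 in NOD 2. Irf1, a transcription factor induced by interferon, had 15, 3 and 33 counts, with NOD 1 lowest.

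Qa-2 needs GPI anchor synthesis, and 5 of 21 genes of that pathway were called higher and 0 lower, against 10.3% and 7.39% of all genes. The largest change was in Pigp, a subunit of the first enzyme of the pathway, at counts of 222, 23350 and 33875 in the same order (log2 fold change 5.71, SE 0.39). Pigg (3.89), Pigu (3.58), Pigs (2.57) and Pigx (1.94) were the others. Pigu and Pigs belong to the transamidase that attaches the anchor. The median of the list was 0.88, against 0.26 over all genes.

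Receptors of leukocytes for class I molecules were nearly absent. Of 10 in the table, 8 had 0 counts in every library, including Klrd1 and Klrc1, which encode the CD94/NKG2A receptor for Qa-1. Leukocyte markers summed to 0.294, 0.363 and 1.03 CPM, with Ptprc, Lyz2, Fcer1g and Cd79a at 0. Cumulus cell markers were at 0 apart from 1 count.

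Markers of the embryo's own lineages were present in every library. Trophectoderm markers summed to 3085 (B6), 1780 (NOD 1) and 1636 CPM (NOD 2), and 0 of 8 tested were called, against 17.7% of all genes in either direction. Krt18 and Krt8, keratins of that epithelium, were abundant in all 3 libraries. Epiblast and ICM markers summed to 495, 622 and 902 CPM, and of 10 tested, Tdgf1 and Zfp42 were called higher in NOD and Sox2 lower. Primitive endoderm markers summed to 763, 769 and 983 CPM, and of 6 tested, Pdgfra was called higher and Gata6 lower. The part of such lineage differences in the class I values was not tested.

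Promoter sequences of 300 bases, from 250 before to 50 after the RefSeq start (GRCm38.p6), were found for 7 of the 10 genes. H2-Q6 and H2-Q7 are shown as the pair of Qa-2 genes of which B6 had counts only on H2-Q7. H2-T22 and H2-T23 are shown as the genes with an exact match to the interferon motif. Capitals mark the core of the interferon-stimulated response element (GAAA, 2 bases of any kind, GAAA) and a kappaB core (GGGA, 4 bases of any kind, CC), searched on both strands. Each is written 5' to 3' along its gene.
H2-Q6 promoter (chr17:35424600-35424899, plus strand): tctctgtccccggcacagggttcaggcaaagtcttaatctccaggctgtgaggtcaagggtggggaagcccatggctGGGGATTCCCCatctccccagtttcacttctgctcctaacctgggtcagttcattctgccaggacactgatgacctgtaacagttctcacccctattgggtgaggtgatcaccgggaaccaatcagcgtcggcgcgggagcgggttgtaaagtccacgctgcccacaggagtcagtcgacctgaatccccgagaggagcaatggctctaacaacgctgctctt
H2-Q7 promoter (chr17:35438905-35439204, plus strand): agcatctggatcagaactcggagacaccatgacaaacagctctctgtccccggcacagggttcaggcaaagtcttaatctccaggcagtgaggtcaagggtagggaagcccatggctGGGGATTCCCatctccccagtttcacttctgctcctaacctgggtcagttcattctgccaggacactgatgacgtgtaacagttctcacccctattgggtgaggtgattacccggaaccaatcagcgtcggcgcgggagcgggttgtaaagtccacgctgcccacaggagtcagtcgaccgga
H2-T22 promoter (chr17:36042693-36042992, minus strand): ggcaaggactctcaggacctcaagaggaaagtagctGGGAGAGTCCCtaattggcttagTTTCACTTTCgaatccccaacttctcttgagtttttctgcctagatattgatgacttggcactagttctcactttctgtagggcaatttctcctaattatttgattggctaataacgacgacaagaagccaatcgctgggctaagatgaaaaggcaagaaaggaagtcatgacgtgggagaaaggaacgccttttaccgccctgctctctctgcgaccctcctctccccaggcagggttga
H2-T23 promoter (chr17:36032652-36032951, minus strand): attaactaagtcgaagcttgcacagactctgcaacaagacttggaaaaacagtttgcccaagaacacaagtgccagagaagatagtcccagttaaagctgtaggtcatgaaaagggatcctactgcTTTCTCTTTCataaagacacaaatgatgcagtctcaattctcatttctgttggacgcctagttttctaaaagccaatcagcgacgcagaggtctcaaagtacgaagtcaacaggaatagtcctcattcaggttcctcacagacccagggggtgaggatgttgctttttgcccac

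The exact interferon motif was in H2-T22, 191 bases before the start, and in H2-T23, 124 bases before it. It was in 3.44% of all 32851 promoters. The kappaB core was in H2-Q4, H2-Q6, H2-Q7, H2-T22 and H2-M3, and in 20.7% of all promoters. In H2-Q6 and in H2-T22 it matched at 2 overlapping positions. The H2-Q6 and H2-Q7 promoters were identical at 255 of 340 aligned columns (75.0%), and both hold the kappaB core. Their windows start at different points of a shared sequence, so columns at each end held a base of a single gene. These columns count as unmatched, so the percentage understates the likeness of the stretch that both windows cover. A match is a description of these letters in this window, and only exact matches were counted. The H2-Q6 and H2-Q7 windows hold tttcacttct, which is near the interferon motif but departs from it. A promoter without a match may therefore still hold a variant of the element. The promoter of H2-Q2, which was called, held no exact match to either motif.

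The calls of single genes depended on the test. Over 10 alternatives of scaling, filter and test, H2-T10 was called in 8 and H2-Q2 in 7, with adjusted p from 1.10e-06 to 0.357 and from 0.00833 to 0.384. H2-Q4 was called in 3 and H2-Q6 in 1, while H2-Q1 and H2-T23 were called in 0 of 10 and H2-T24 in 0 of 9.

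**Figure D5:**
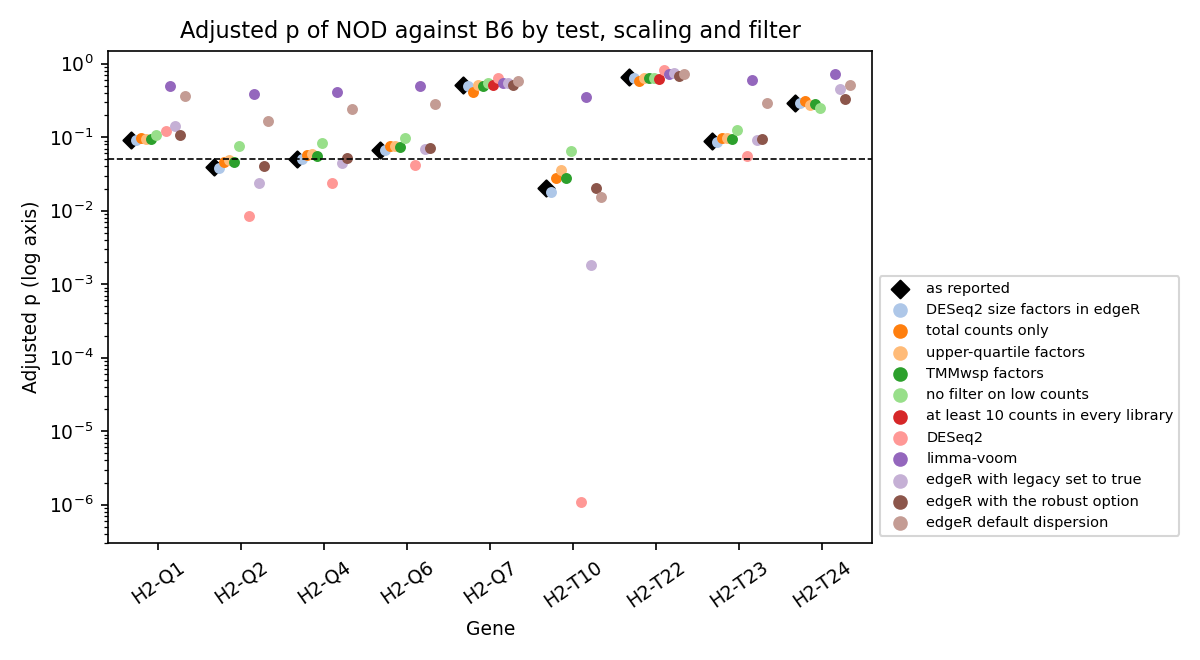
Adjusted p of NOD against B6 on a log axis for the 9 genes tested, with the reported value as a black diamond, each alternative as a coloured point, and the threshold of 0.05 as a dashed line. H2-T10 reached 1.10e-06 with DESeq2 and 0.357 with limma-voom, and H2-Q7 and H2-T22 stayed above the line under each setting drawn.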

How the data were processed

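Libraries were made with the SMART-Seq v4 kit and sequenced as single reads of 50 bases. According to the study's methods and the processing notes, the authors aligned reads to mm10 with STAR. The version is 2.2.0c in the notes, whereas the methods give another. The authors deposited raw counts per RefSeq gene made with HOMER, on both strands together. How reads with several alignments were treated is not given in the sources used here, and how well NOD reads of these polymorphic genes align to a C57BL/6J reference was not tested.

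Libraries were grouped by strain. Counts were filtered with filterByExpr (minimum count 10), scaled by TMM and tested with edgeR 4.0.16 (quasi-likelihood, trended dispersion) over all 14456 genes kept, in R 4.3.3, with Benjamini-Hochberg adjustment. The fit had 1 residual degree of freedom, so the spread came from NOD and was moderated across genes. DESeq2 1.42.0 and limma 3.58.1 served as alternatives. The test was run on simulated data first. CPM and FPKM were computed from the counts, FPKM with the listed transcript length. A count of 0 was read as at most 3 counts. Sequences came from GENCODE M21 and RefSeq.

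The 10 genes and the lists were chosen with earlier results of these data known. Named were all 10 genes, other H2-Q, H2-T and H2-M rows with a count, overlapping rows, flanking tested genes, and the called genes of each list, with some uncalled ones chosen after their values were seen. The counting command names 5 libraries. Only the 3 analysed have a column of counts, so the other 2 could not be used here.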

Additional observations from a re-analysis of the deposited data

How the results depend on the processing

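No paired analysis was possible because the labels give no pairing between the libraries of the strains. With upper-quartile scaling 1016 genes were called higher, 701 lower and 2 members higher. Without a filter on low counts 0 genes were called in either direction, members included, with 5568 at an unadjusted p under 0.05, and limma-voom likewise called 0 and 0 genes and 0 members (3924 at an unadjusted p under 0.05). With at least 10 counts in every library 2012 genes were called higher and 1922 lower. Of the members 0 were called, and H2-Q7 and H2-T22 alone were then tested. DESeq2 called 2365 genes higher, 1887 lower and 4 members higher (H2-T10, H2-Q2, H2-Q4 and H2-Q6). edgeR with legacy set to true called 1994 genes higher, 1612 lower and 3 members higher. With its default dispersion, chosen after seeing the data, edgeR called 1231 genes higher, 1373 lower and 1 member, H2-T10. Scaling by total counts alone gave 47.8% of calls as higher, against 58.1%, and moved the median of all genes to 0.07. Read as the sum of its family, H2-Q7 changed sign, to 0.82 over the H2-Q rows and 1.33 over each span once, the latter chosen after seeing the data. H2-T22 did so too, at 3.20 in the sum with H2-T10 and H2-T9 and 4.12 with each span once. These sums contain the genes that were higher in NOD. The sum over the H2-Q rows, which counts H2-Q6/H2-Q8 and H2-Q7/H2-Q9 doubly, was not called (adjusted p = 0.313 by edgeR), nor was the sum with each span once (0.163), which ends the call of H2-Q2 in that reading. Leaving out NOD 1 or NOD 2 gave values with no test, since no residual degrees of freedom remained. The 5 members at 0 in B6 keep their sign under any setting by construction. H2-T23 moved the most, to 7.20 without NOD 1 and 9.24 without NOD 2, H2-Q6 lay at 9.13 and 8.03, and H2-Q7 at -0.33 and -1.64. B6 is a single library, so its own spread is unknown and its depth limits each count of 0.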

Other observations

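Class I-like genes outside the H2 complex were also examined. Of 11 tested, 3 were called higher in NOD by edgeR's quasi-likelihood test and 0 lower, against 10.3% and 7.39% of all genes, and 2 of the 3 are rows of 1 locus. Cd1d1, which presents lipids to natural killer T cells, had counts of 0, 106 and 100 for B6, NOD 1 and NOD 2 (adjusted p = 0.0459 by edgeR's quasi-likelihood test). Raet1a and Raet1d, ligands of the NKG2D receptor, had 0, 337 and 274 and 0, 316 and 266 counts (adjusted p = 0.0242 for each in the same edgeR test). Their rows overlap each other and those of Raet1b (0, 328 and 271 counts) and Raet1c (16, 244 and 286 counts), so they are not separate measurements. Raet1e, whose row overlaps that of Raet1a, had 16, 202 and 258 counts and was not called. Klrk1, which encodes NKG2D, had 0 counts in every library.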
